A study of Mus musculus with 4 samples.

Results

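Islands of trimethylated histone H3 lysine 36 (H3K36me3) were examined over 4 genes of the extracellular matrix, Col1a1, Col1a2, Col3a1 and Fn1, in mouse myocyte cultures. Each gene was represented by a fixed window of the mouse build mm9, and every island that overlapped a window by at least 1 bp was taken. Each window is longer than its gene in the GRCm38 gene table, so part of it lies outside the gene. The 4 windows held 11 of 58326 islands in wild-type cells and 15 of 69798 islands in mutant cells. H3K36me3 was mapped by chromatin immunoprecipitation and sequencing, with 1 library per genotype. Both genotypes, wild type and enhancer deletion mutant, were of the FVB strain; the mutant lacks an enhancer at H19/Igf2 that acts in muscle. Myoblasts came from skeletal muscle on postnatal day 4, were used at passages 5 to 10, and were harvested 24 hours after growth factors were withdrawn to form myotubes. The labels do not say how many animals gave the cells or whether the deletion was present on both chromosomes. The 2 input DNA samples were not analysed here. The identity of the cultures was not checked against muscle markers, since no mm9 gene positions were used here.

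H3K36me3 is placed on transcribed gene bodies by an enzyme that travels with elongating RNA polymerase, and it usually increases from the start of a gene towards its end. Col1a1 and Col1a2 encode the chains that assemble into type I collagen, and Col3a1 encodes the chain of type III collagen. Fn1 encodes fibronectin, a glycoprotein of the matrix that binds integrins at the cell surface. In muscle these proteins are made mainly by fibroblasts, and myoblasts in culture make them too. The libraries came from whole cultures, so a strong mark in few cells and a weak mark in many cells cannot be told apart. No RNA was measured.

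Islands covered most of the Fn1 and Col1a2 windows, less of Col3a1 and none of Col1a1, in both genotypes. Fn1 was covered to 88.3% in wild-type cells and 88.6% in the mutant, Col1a2 to 68.8% and 81.0%, and Col3a1 to 39.5% and 39.5%. No island of either library overlapped the Col1a1 window. The order of the 4 genes by cover was thus the same in both libraries, but with 1 library each there is no spread to set beside it.

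**Figure D1:**
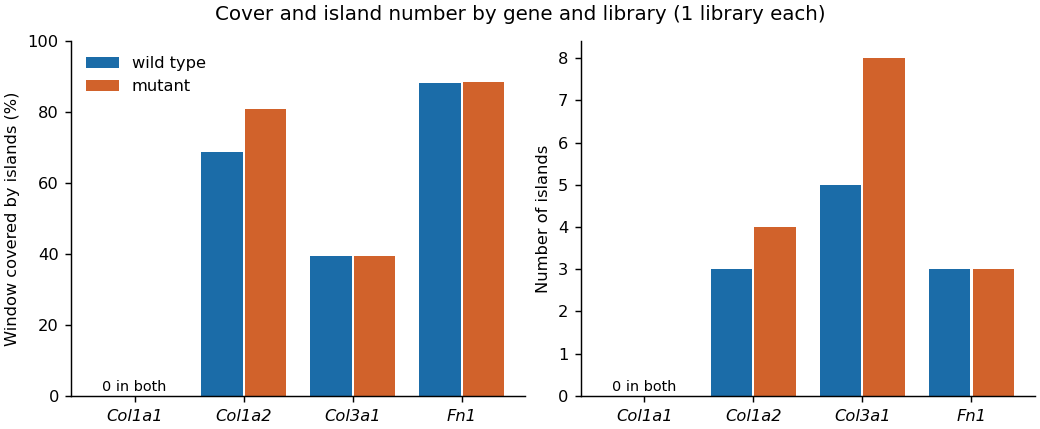
Percentage of each gene window covered by H3K36me3 islands (left) and number of islands that overlap it (right), in the wild-type (blue) and mutant (orange) library. Fn1 and Col3a1 have nearly equal bars for cover, Col1a2 is at 68.8% and 81.0%, and Col1a1 is at 0 in both; Col3a1 holds 5 and 8 islands.

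To place these values, all autosomes were cut into tiles of the length of each window. The tiles were laid without regard to genes and can lie between them, whereas each window was framed on a gene. The shares of tiles below are therefore not shares of gene windows. Cover of at least 50% in both libraries was reached by 2 of the 4 genes, Fn1 and Col1a2, against 5.71% of 72 kb tiles and 6.68% of 41 kb tiles (and 6.81% at 42 kb and 7.76% at 22 kb, the lengths of the other 2 windows). As much cover as in Fn1 was seen in 0.204% of tiles in wild-type cells and 0.172% in the mutant. For Col1a2 the shares were 3.41% and 1.37%, and for Col3a1 12.5% and 12.6%. Fn1 therefore lay near the top of its tiles, and Col3a1 within the upper part of a distribution in which 57.7% and 58.0% of 42 kb tiles were without any island.

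No gene differed between the genotypes by 1.5-fold in cover. The ratio of mutant to wild-type cover was 1.18 for Col1a2, 1.00 for Col3a1 and 1.00 (1.00314) for Fn1, so 0 of 3 genes with islands passed 1.5-fold. Among tiles covered to at least 10% in either library, 39.5% of 41 kb tiles, 39.2% of 42 kb tiles and 32.4% of 72 kb tiles passed it in 1 direction or the other. With cover of at least 25% these shares were 27%, 26.6% and 20.9%. Cover cannot exceed the whole window, so wild-type cover of 88.3% (Fn1) and 68.8% (Col1a2) left no room for a mutant gain of 1.5-fold. In both genes only a loss in the mutant could have passed it, whereas tiles of low cover could pass it either way. The Col3a1 value depended on which islands were kept: it was 2.24 when each list was reduced to its upper 50% by score and 0.507 with islands of at least 2 kb.

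**Figure D2:**
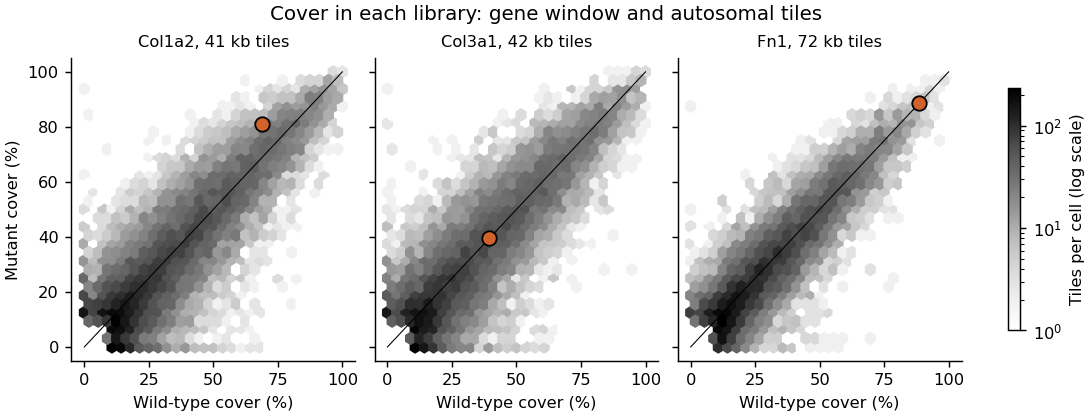
Cover in the wild-type (x axis) and mutant (y axis) library, in percent, for all autosomal tiles covered to at least 10% in either library (grey, number of tiles on a log scale) and for the gene window of the same length (orange point). The Fn1 and Col3a1 points lie on the line of equal cover, and the Col1a2 point (68.8%, 81.0%) lies above it.

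Col1a1 and Col1a2, whose products form a common collagen, were unlike each other: Col1a2 was densely marked and Col1a1 had no island. The Col1a1 window, chromosome 11 from 94795001 to 94817000, held 0 islands in wild-type cells and 0 in the mutant, in the lists as used here; rows left out of these lists would not be seen. The lists hold only islands above a minimum, the lowest deposited scores being 30.3 in wild-type cells and 22.6 in the mutant, so weaker enrichment would not be seen. Of 22 kb tiles, which were laid without regard to genes, 61.3% had no island in either library. How often a window framed on a gene has none was not analysed. The stretch without islands around Col1a1 ran from 94761801 to 94820400 in wild-type cells, 58.6 kb, and from 94532001 to 94821600 in the mutant, 289.6 kb. Of all gaps between neighbouring autosomal islands, 10.6% in wild-type cells and 2.16% in the mutant were at least that long. The wild-type stretch began after an island of 2.2 kb whose score, 30.3, was the lowest in its list. The wild-type length of 58.6 kb therefore depends on 1 island at that minimum.

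Islands began shortly after the Col1a1 window in both libraries. The nearest ran from 94820401 to 94833800 in wild-type cells, 3.4 kb past the window, and from 94821601 to 94833800 in the mutant, 4.6 kb past it. Their scores per 200 bp, 5.35 and 5.68, stood at the 81.7th and 79.8th percentiles of their own lists. In the GRCm38 gene table the gene that follows Col1a1 is Sgca, which encodes alpha-sarcoglycan of the dystrophin complex of muscle. The position of Sgca on mm9 was not analysed here. In the 50 kb before the window the wild type held 1 island of 2.2 kb, at the lowest score of its list, and the mutant none.

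Of the 4 genes, the promoter table of RefSeq (build GRCm38.p6) gave entries for Col1a2 and Col3a1, both on the forward strand, so the first bases of their windows lie on the side of the gene start. The 250 bases before each annotated start are shown. The mark lay mainly away from that side in both genes, and a link between these sequences and the mark was not tested. Capitals mark matches, on either strand, to the letters CCAAT or TATAAA, which are found in many promoters.
Col1a2: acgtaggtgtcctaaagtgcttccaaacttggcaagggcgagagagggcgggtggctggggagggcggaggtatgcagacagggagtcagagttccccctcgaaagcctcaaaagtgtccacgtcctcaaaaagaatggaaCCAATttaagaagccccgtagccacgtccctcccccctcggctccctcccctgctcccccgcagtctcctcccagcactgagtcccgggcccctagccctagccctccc
Col3a1: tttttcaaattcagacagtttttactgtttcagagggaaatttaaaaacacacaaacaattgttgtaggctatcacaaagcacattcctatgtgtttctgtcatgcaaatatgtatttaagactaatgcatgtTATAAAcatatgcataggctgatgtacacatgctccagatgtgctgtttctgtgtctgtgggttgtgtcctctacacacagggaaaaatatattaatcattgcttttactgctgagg
The Col1a2 sequence holds CCAAT, beginning 109 bases before the start, and no TATAAA, and its G and C content is 62%. The Col3a1 sequence holds TATAAA, beginning 117 bases before the start, and no CCAAT, and its G and C content is 35.2%. Among 32851 promoters of the table, 33.8% hold CCAAT and 12.4% hold TATAAA in these 250 bases, and the median G and C content is 52.4%. Neither sequence holds both motifs.

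Col1a2 carried a near-continuous block of the mark over the later part of its window, chromosome 6 from 4453001 to 4494000. In the wild type the block was an island of 24.6 kb, from 4467801 to 4492400, with a score of 993 and rank 313 in its list. It was preceded by short islands from 4461601 to 4463200 and from 4465001 to 4467000. In the mutant the same stretch was held by an island from 4464801 to 4476000 and by an island from 4476801 to 4495600, which ended 1.6 kb past the window. A gap of 800 bp divided them, and their scores were 431 and 796. The libraries shared 27.4 kb of cover in Col1a2, 80.6% of the length covered in either, where the median over tiles covered to at least 10% in both was 64.5%. Those tiles were not matched to Col1a2 in cover, and high cover in both libraries raises the share by itself.

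The difference between the genotypes in Col1a2 lay at both sides of the block. At the far end, the last 10% of the window was covered to 61.0% in wild-type cells and to 100% in the mutant. Only the mutant had islands in the first 20% of the window: 1 from 4455801 to 4456800, without overlap in wild-type cells, and the first part of another from 4459401 to 4463200. Over the first 50% of the window the wild type was covered to 45.4% and the mutant to 65.9%, and over the second 50% to 92.2% and 96.1%. The mutant also had islands just before the window. The adjoining 10 kb was covered to 0% in wild-type cells and to 70% in the mutant, by islands from 4441801 to 4446000, from 4447201 to 4449200 and from 4450401 to 4452400. This bin was singled out after its values were seen. Of 10 kb tiles covered to at least 10% in either library, 1.11% had no wild-type cover and at least 50% in the mutant, and 1.68% had the reverse. The mutant library was the deeper one, at 3.11 reads per 200 bp against 2.82. Its list also went down to a lower score, 22.6 against 30.3 in wild-type cells. The part of depth and of the unequal lowest scores in this difference was not tested.

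Col3a1 had the least continuous cover of the 3 genes with islands. Its window, chromosome 1 from 45366001 to 45408000, held 5 wild-type islands of 1.6 to 5.6 kb and 8 mutant islands of 0.4 to 4.2 kb. The mutant list as a whole also had more and shorter islands, with a median length of 3 kb against 3.8 kb. With both lists reduced to equal numbers of islands the counts in Col3a1 were 5 and 6. With lists of equal covered length they were 4 and 8. Whether the unequal counts are particular to Col3a1 was not tested. Each full list covered 16.6 kb of the window, but only 12 kb was common to both. That was 56.6% of the length covered in either, below the median of 64.1% over tiles. An island from 45378201 to 45379800 had the same edges in both libraries. The islands from 45388201 to 45391600 and from 45392601 to 45398200 in wild-type cells had counterparts from 45388001 to 45391400 and from 45392601 to 45396800 in the mutant. The mutant islands from 45373601 to 45375400 and from 45384201 to 45386000 had no overlap in wild-type cells.

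The equal totals in Col3a1 came from different places. In the first 50% of the window the wild type had 1.6 kb of islands and the mutant 5.2 kb, and in the second 50% they had 15.0 kb and 11.4 kb. The largest gap in the mutant's second 50% ran from 45399201 to 45402600, where the wild type had an island from 45399001 to 45403000. Only 15% of that wild-type island was covered in the mutant, partly by an island of 400 bp from 45402601 to 45403000. The score of this small island, 23.4, splits into whole read counts of 13 and 14 in its 2 windows of 200 bp, where the mean of the library was 3.11. Both genotypes thus had more of the mark towards the end of the gene, and the first 10% of the window was free of islands in both.

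**Figure D3:**
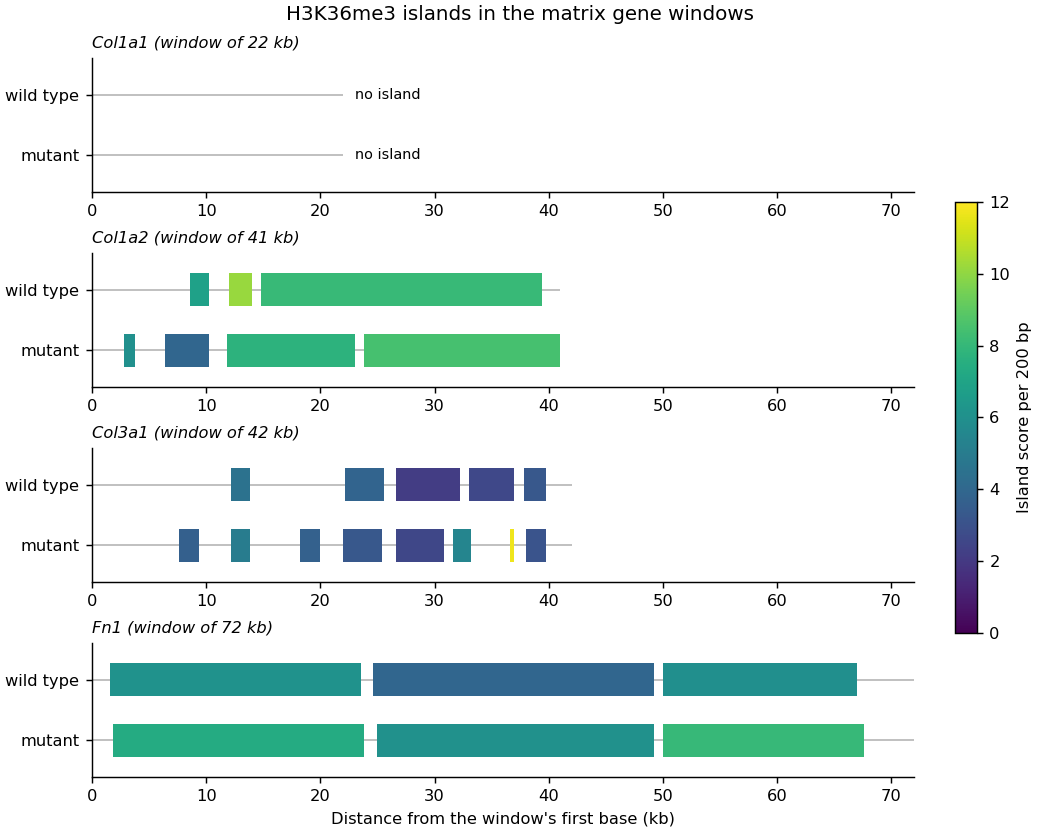
H3K36me3 islands in each gene window, by distance from the window's first base in kb, for the wild-type (upper row) and mutant (lower row) library; colour gives the deposited island score per 200 bp. Fn1 shows 3 islands with nearly the same edges in both rows, Col1a2 a long block towards the right, Col3a1 short separate islands, and Col1a1 none.

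Beyond the Col3a1 window the libraries differed on 1 side. Neither had an island in the 50 kb before it, and the nearest ended 336.8 kb away in wild-type cells and 337 kb away in the mutant. In the 50 kb after it the wild type had none and the mutant had 4, from 45432401 to 45433800, from 45436801 to 45438000, from 45446201 to 45450000 and from 45451201 to 45455000. This side was singled out after its values were seen. The farthest of its 10 kb bins was at 0% and 58%. It was the only 1 of the 5 with no wild-type cover and at least 50% in the mutant. Of 10 kb tiles covered to at least 10% in either library, 1.11% met that pattern. Over the whole 50 kb the mutant was covered to 20.4%, and how often such a stretch has mutant islands alone was not analysed. The gene that follows Col3a1 in the GRCm38 table is Col5a2, which encodes a chain of type V collagen, a collagen of the same fibrils. The nearest wild-type island on that side began 53.6 kb past the window, at 45461601.

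Fn1 had the most continuous cover of the 4 genes. Its window, chromosome 1 from 71630001 to 71702000, held 3 islands in each library. The wild-type islands ran from 71631601 to 71653600, from 71654601 to 71679200 and from 71680001 to 71697000. The mutant islands ran from 71631801 to 71653800, from 71655001 to 71679200 and from 71680001 to 71697600. The edges of matching islands differed by at most 600 bp, and the gap of 800 bp from 71679201 to 71680000 was the same in both. The shared length was 63.0 kb, 97.8% of the length covered in either, and 99.7% of tiles covered in both libraries had a lower share. Those tiles needed cover of only 10% in each library, and their median share was 63.0%. At cover as high as that of Fn1, most of the window is shared wherever the islands lie. Its rank among tiles therefore follows in part from its cover, and tiles of similar cover were not compared.

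Cover in Fn1 extended over nearly the whole window apart from its last 10%. The first 50% of the window was covered to 92.8% in wild-type cells and 91.7% in the mutant, and the second 50% to 83.9% and 85.6%. Fn1 is read from the reverse strand, so the first bases of the window lie on the side of the gene's end. The last 10%, on the side of the start, was covered to 30.6% and 38.9%. Islands also lay on both sides outside the window. The 50 kb before it held 21.2 kb of cover in wild-type cells and 18.8 kb in the mutant, and the 50 kb after it 24.0 and 20.4 kb. Atic, which encodes an enzyme of purine synthesis, is the neighbour on the first side in the GRCm38 table.

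**Figure D4:**
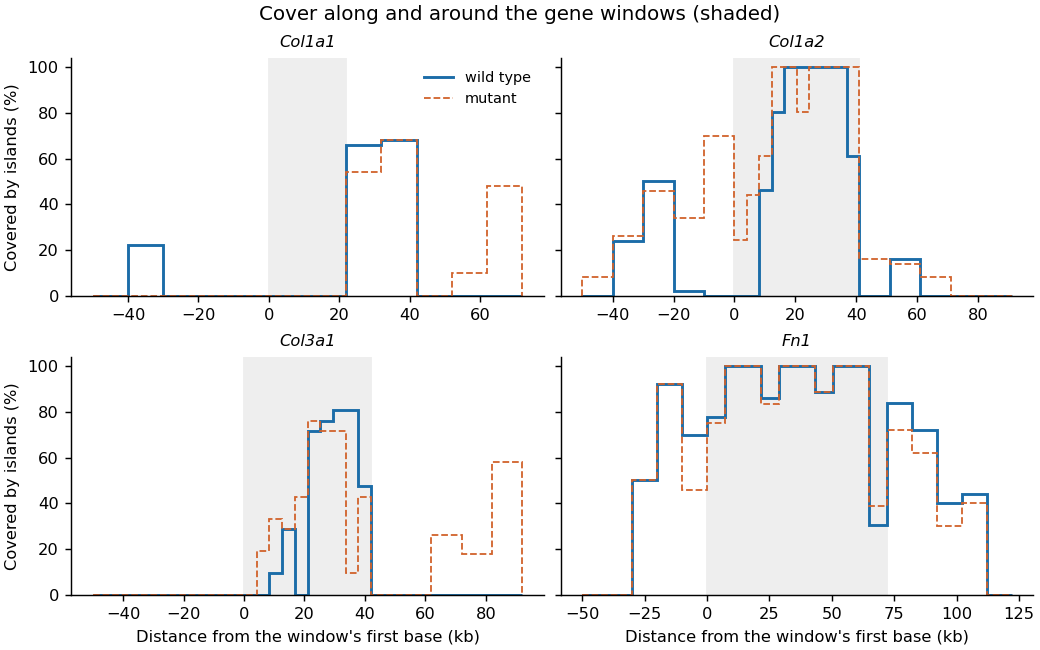
Percentage covered by islands along each gene window (shaded, 10 equal parts) and in 10 kb bins out to 50 kb on each side, for the wild type (solid blue) and the mutant (dashed orange). Col1a1 is at 0 with islands beginning just after it, Col1a2 rises towards its end with mutant cover also before it (70% in the adjoining bin against 0%), Col3a1 is covered mainly in its second 50%, and Fn1 is covered nearly throughout.

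The density of the mark, as the deposited score per 200 bp of island, put Col1a2 above Fn1 when taken over all islands of a gene. An island score sums over windows how improbable the read count of each is, so it grows with depth and is set here first against the islands of its own list. In the wild type it was 8.15 for Col1a2, 5.20 for Fn1 and 2.96 for Col3a1. These values stood at the 95.9th, 80.0th (80.0055) and 30.7th percentiles of all wild-type islands, whose median was 3.62. In the mutant it was 7.65, 7.03 and 3.72, at the 92.8th, 90.3rd and 44.3rd percentiles, with a median of 3.95. Col3a1 was thus the least dense of the 3 genes in both libraries. The order of Col1a2 and Fn1 in the mutant depended on the summary: as a median over islands it was 6.83 for Col1a2 and 7.33 for Fn1, against 8.07 and 5.95 in wild-type cells.

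Single islands varied within a gene. In Col1a2 they ranged from 6.84 to 10.2 in wild-type cells and from 3.91 to 8.47 in the mutant, the lowest being the mutant island from 4459401 to 4463200 on the side of the start. In Col3a1 they ranged from 2.14 to 4.54 in wild-type cells and from 2.54 to 11.7 in the mutant, where the highest was the island of 400 bp. The score of that island, 23.4, was near the lowest of the mutant list, 22.6. An island this short needs a high score per 200 bp to reach that minimum, so its value follows from its length. In Fn1 the middle island had the lowest value in both, 3.93 in wild-type cells and 6.02 in the mutant, at the 58.0th and 83.5th percentiles. The first and the last Fn1 islands had 6.05 and 5.95 in wild-type cells and 7.33 and 8.03 in the mutant.

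**Figure D5:**
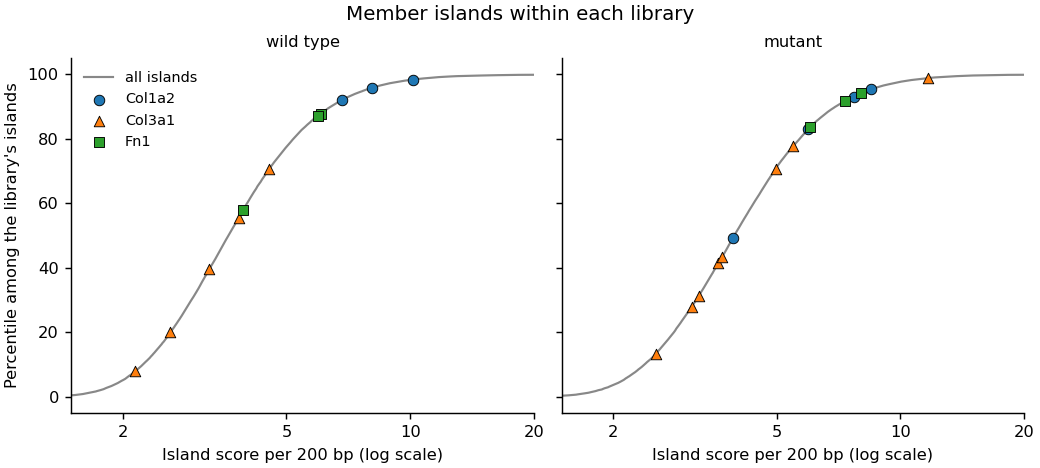
Percentile of each member island's score per 200 bp among all islands of its own library (y axis) against the score per 200 bp (x axis, log scale), for the wild type (left) and the mutant (right); the grey line is the whole list. Col1a2 (circles) and Fn1 (squares) islands lie mostly high and Col3a1 (triangles) islands mostly low, apart from the 400 bp mutant island at 11.7. An island that short needs a high score per 200 bp to be in the list at all.

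Summed scores were compared between the genotypes beside the same ratio in all tiles covered to at least 10% in both libraries. The score inside the window, with islands clipped to it, was in Fn1 1.35 times as high in the mutant, in Col3a1 1.26 times and in Col1a2 1.0996 times. The median tile of those lengths had ratios of 1.07 (1.07306), 1.07 (1.06614) and 1.07 (1.06961). Relative to the median tile the values were 1.26, 1.18 and 1.03, and 0 of 3 genes lay 1.5-fold or more from it, where 24.1%, 29.2% and 29.2% of tiles did. A lower ratio than in Fn1 was seen in 76.3% of tiles. As a second view, for which tiles were not computed, each score per 200 bp was converted to the even read count that would give it, over the library's mean. That count was 2.86 times the mean in wild-type cells and 3.26 times in the mutant for Fn1, 2.03 and 2.26 times for Col3a1, and 3.70 and 3.42 times for Col1a2. Col1a2 was thus slightly lower in the mutant by this measure and slightly higher by the clipped score, which also counts its longer cover.

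All 11 wild-type islands of these genes had an overlap in the mutant list, and 12 of the 15 mutant islands had an overlap in the wild-type list. Over the whole lists 82% of wild-type and 74.3% of mutant islands had one. The other 3 were the islands without counterpart named above, 1 in Col1a2 and 2 in Col3a1, all in the first 50% of their windows. They were 1.0 to 1.8 kb long, with scores of 29.8 to 33.2, where the median of the mutant list was 51.9. The lowest score of the wild-type list was 30.3, so islands this weak lay close to the limit of what that list holds. The part of that limit in their absence from the wild-type list was not tested.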

How the data were processed

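Per the submitters' processing notes, Bowtie 1.0.0 and SICER 1.1 were used with build mm9. The authors deposited 1 list of islands per H3K36me3 library, with an island score; windows of 200 bp and gaps of 600 bp are given in the names of the deposited lists. Whether the input libraries were used, or duplicate reads removed, is not stated in the sources used. Coordinates are counted from 1.

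The members, their windows and the gene lists were chosen with earlier results of these data known. Cover is the share of a window inside islands. Tiles of equal length were laid from the start of each of the 19 autosomes to its last island. The mean reads per 200 bp were solved from the deposited scores of islands of 1 window (8 and 14 islands), and total depth is unknown. With 1 library per genotype genotypes could not be tested; differences were read at 1.5-fold. Python 3.11.15 was used with matplotlib 3.10.9, scipy 1.17.1, pandas 2.3.3 and numpy 2.4.6, and the computations were tested on simulated data. Genes named are the 4 members and their neighbours in the gene order of GRCm38. The other matrix genes and cell type markers planned, and exons and introns, were not analysed here for want of mm9 gene positions in the sources used.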

Additional observations from a re-analysis of the deposited data

How the results depend on the processing

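Leaving out a replicate was not possible, since each genotype has 1 library. No paired analysis was possible because the 2 groups have 1 library each. Of 21 alternative cover ratios 19 stayed under 1.5-fold, and the 2 that passed it, both of Col3a1 and in opposite directions, came from dropping islands: 2.24 in the upper 50% by score, where 1 wild-type and 2 mutant islands were left with cover of 8.10% and 18.1%, and 0.507 with islands of at least 2 kb, where 2 mutant islands and 18.1% were left. Joining islands within 2 kb gave cover of 75.1% (wild type) and 86.8% (mutant) with 1 and 2 islands in Col1a2, 51.4% in the mutant with 2 and 4 islands in Col3a1, and 1 island in each library in Fn1. Windows widened by 10 kb gave Col1a1 1 island and 15.7% and 12.9% cover, Col1a2 46.2% and 68.5% with 7 mutant islands, Col3a1 26.8% in both, and Fn1 82.2% in the mutant with 6 islands in each library. Windows narrowed by 2 kb gave 75.1% in wild-type Col1a2, and 92.9% and 93.5% in Fn1. At the widened windows the Col1a2 ratio was 1.48. Cover cannot exceed the whole window, so Fn1, with wild-type cover of at least 85.9% in every setting, could not show a mutant gain of 1.5-fold. The share of tiles past the fold was 25.4% (41 kb), 25% (42 kb) and 18.5% (72 kb) at 2-fold, and for 72 kb tiles 50.5% at the smaller alternative fold and 20.9% with cover of at least 25%. None of the 42 alternative scores per 200 bp moved by over 1.5 times, but as medians over islands mutant Fn1 (7.33) lay above mutant Col1a2 (6.83), the reverse of 7.03 and 7.65. The score ratio beside tiles was added after seeing the data. Enrichment too weak to form an island is not seen at this depth.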
